A study of Rattus norvegicus with 10 samples.

Results

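The carbonic anhydrases of the rat submandibular gland were followed here through 9 array probes of 8 genes, Car2, Car3, Car4, Car6, Car8, Car9, Car12 and Car14. For these genes the probes were taken by gene name alone, as all non-control probes whose RefSeq accession belongs to one of them. They came out of 30367 probes and 15168 named genes. The genes themselves, and the gene lists below, were chosen with earlier results of these data known. Counts over them are therefore not independent of the data. Each gene had 1 probe except Car6, which had 2, and the Car2 probe was printed 10 times on every array. Messenger RNA of the submandibular gland, a major salivary gland, was measured in male rats aged 14 weeks, on one-colour Agilent arrays. The SHR group, 5 arrays, was of the spontaneously hypertensive rat, bred for high blood pressure, and the WKY group, 5 arrays, of the Wistar Kyoto rat, the normotensive strain usually set against it. No treatment is named in the labels, and the 2 strains are separate inbred lines, so that blood pressure and other strain differences cannot be told apart. The labels do not say whether the arrays of a strain came from separate animals, and p-values then measure only the spread between these samples, which may be technical. RNA came from whole gland, in which fewer cells of a type and less RNA per cell cannot be told apart.

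Carbonic anhydrases are zinc enzymes that interconvert carbon dioxide and water with bicarbonate and a proton. In salivary glands they supply bicarbonate to acinar and duct cells, and saliva carries bicarbonate as its main buffer. The isoforms differ in where they work. Car2 and Car3 are cytosolic, Car6 is the secreted isoform of saliva, Car4 is held on the outer cell surface by a lipid anchor, and Car9, Car12 and Car14 are transmembrane proteins with an outward-facing catalytic domain. Car8 lacks the enzyme activity and binds the inositol trisphosphate receptor, a calcium release channel.

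Arrays are named by strain and by the paired numbers of their titles. Slides were inferred from the scan times in the file headers, which put SHR 2-3, 3-1, 3-3 and 3-4 on slide 1, SHR 2-1 with WKY 1-5, 4-1 and 4-2 on slide 2, and WKY 1-2 and 1-3 on slide 3. Array SHR 3-3 stood apart: in 652 probes its signal was under the average of the remaining 4 SHR arrays by 2-fold or more, while the count was 67 to 91 on the others. Between 94.8% and 97.7% of spots were well above background, 0 were saturated, and the 75th percentile of processed intensity ran from 333 to 648 in SHR and from 431 to 603 in WKY. Markers of the labelled tissue, the granular duct kallikrein Klk1, the acinar water channel Aqp5 and the acinar transcription factor Bhlha15, were well above background on all 10 arrays. With 5 arrays a strain, precision is limited by their number.

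No carbonic anhydrase probe passed the test between strains. In limma at a Benjamini-Hochberg adjusted p below 0.05, 0 of 9 member probes were called, where 3.84% of all 29266 probes tested were called (1.28% higher and 2.55% lower in SHR). The split between directions moved with the scaling: 376 probes were higher and 747 lower with 75th percentile scaling, 556 and 677 with median scaling, 620 and 736 with quantile normalisation, 492 and 607 with normexp correction, and 707 and 733 in the authors' values. At an unadjusted p below 0.05 there were 3 member probes (Car3, Car6 probe 1 and Car12), against 19.2% of all probes. The strains did not overlap for 1 member probe, Car6 probe 1, against 6.72% of all probes. The same shares over all probes stand beside every count of a gene list or marker list below. The median log2 difference of the 9 probes, SHR minus WKY, was −0.0037, beside −0.019 over all probes. All 9 probes passed the filter for signal above background, and 8 of them were above background on all 10 arrays. A missed threshold does not show that the strains are alike, so the 95% interval of each difference is given. For scale, in data simulated with the spread of these arrays for the comparison of SHR minus WKY over 29266 probes, the fit recovered 46% of 50 probes changed by 0.5 on the log2 scale and 96% of 50 changed by 1.

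Slide 2 was the only slide with both strains, so the value with the slide as a block equals SHR 2-1 minus the mean of the 3 WKY arrays beside it. This log2 difference was −0.26 for Car2, −0.46 for Car3, −0.61 for Car8, 0.27 and 0.41 for Car6 probes 1 and 2, 0.46 for Car4, 0.017 for Car9, 0.17 for Car12 and −0.087 for Car14. It rests on 1 SHR array, and slide and strain otherwise cannot be told apart. Of the 9 probes, 8 kept the sign of the difference over all arrays on that slide, Car9 being the exception. The arrays of slide 2 are also part of the difference over all arrays, so the signs are not independent.

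**Figure D1:**
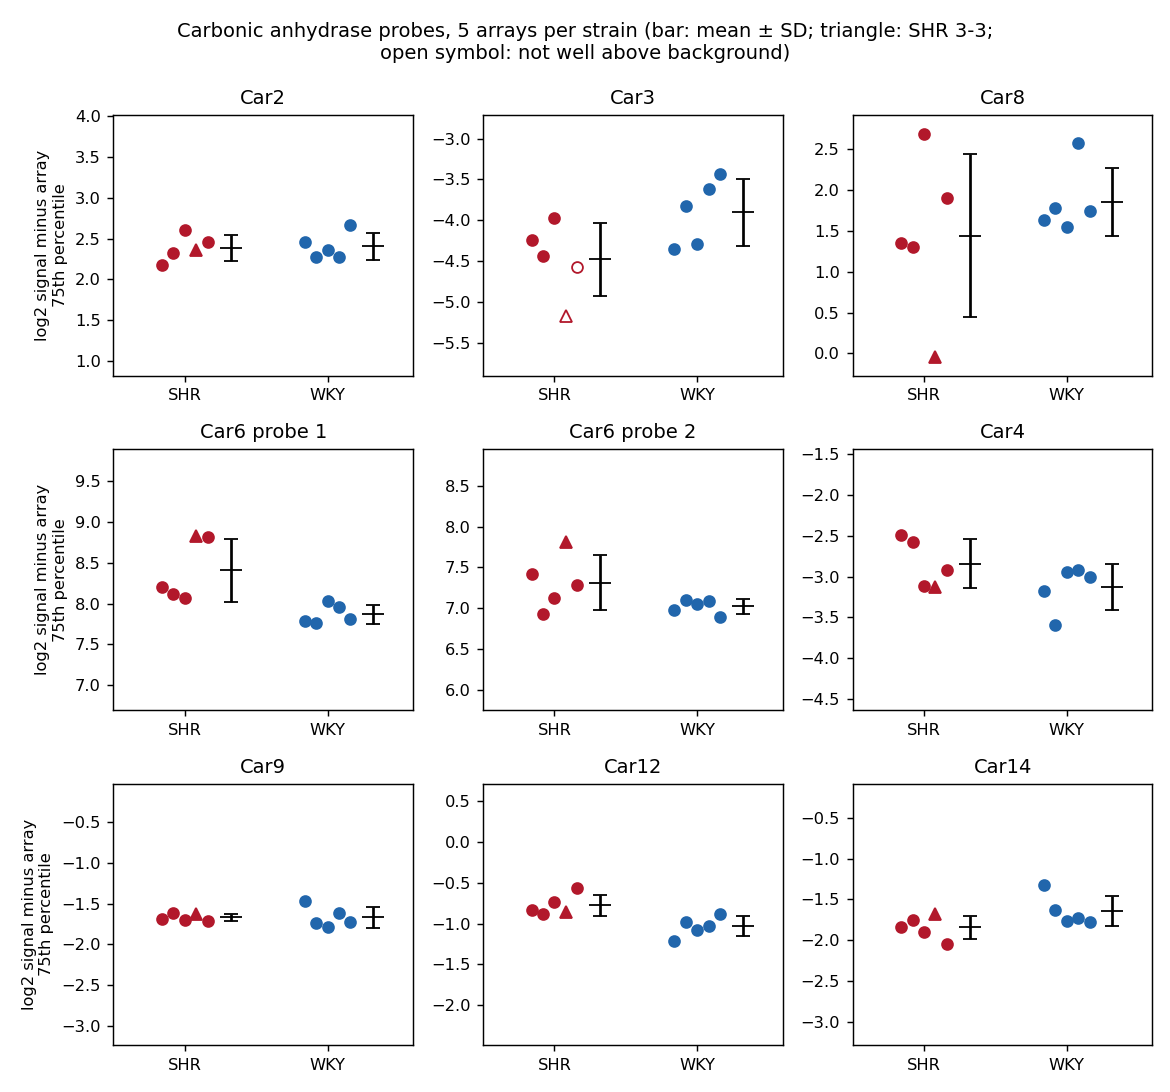
The log2 signal of each of the 9 probes relative to the array's 75th percentile, with 1 symbol per array and the mean ± SD beside the 5 arrays of each strain; all panels span the same height in log2 units, the triangle is SHR 3-3 and open symbols were not well above background. Only in Car6 probe 1 do all SHR symbols lie above all WKY symbols, Car8 is the most spread, and Car9 in SHR is the tightest.

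Levels below are log2 signals relative to the 75th percentile of the same array, and those of different probes are not comparable. SHR values are listed in the order 2-1, 2-3, 3-1, 3-3 and 3-4, and WKY values in the order 1-2, 1-3, 1-5, 4-1 and 4-2.

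Car2, the fast cytosolic isoform, was nearly level between strains. For Car2, log2 signals were 2.17, 2.32, 2.61, 2.36 and 2.45 in SHR, and 2.46, 2.27, 2.36, 2.27 and 2.67 in WKY. The strains overlapped over most of their ranges, with SHR 2-1 lowest and WKY 4-2 highest of the 10. The mean was 2.38 ± 0.16 in SHR and 2.41 ± 0.17 in WKY (SD, n = 5 each), a log2 difference of −0.023 ± 0.107 SE (95% interval −0.26 to 0.21, limma adjusted p = 0.932). Each of these values averages 9 or 10 spots, whose SD within an array was 0.033 to 0.071 on the log2 scale, below the SD between arrays of a strain. Erythrocytes also carry Car2. Of 7 erythrocyte markers tested, 1 was called higher and 0 lower. The called marker was Rhag, a Rhesus family protein of red cells, at 3.86 on the log2 scale, while the median of the list was −0.12 and the other 6 markers, among them the haemoglobin genes Hba-a1 and Hbb at 0.14 each, lay between −0.36 and 0.14. The mean centred log2 level of the list ran from 0.0084 to 0.48 in SHR and from −0.51 to 0.054 in WKY. These ranges overlapped, with SHR 2-1 below WKY 4-1, and the higher average level in SHR reflects the single gene Rhag. The part of erythrocytes in the Car2 value was not tested.

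Car3, a cytosolic isoform of low activity that is abundant in fat and slow skeletal muscle, gave a dim signal that was lower on average in SHR without passing the test. The Car3 signals on the log2 scale were −4.25, −4.43, −3.98, −5.17 and −4.57 in SHR, and −4.35, −3.82, −4.29, −3.62 and −3.44 in WKY. SHR 3-3 and 3-4 did not measure the probe above background, and the other 3 SHR arrays and all 5 WKY arrays did. The 3 lowest values were SHR, and the 3 highest were WKY. The mean was −4.48 ± 0.45 in SHR and −3.90 ± 0.41 in WKY (SD, n = 5 each), a log2 difference of −0.58 ± 0.23 SE (95% interval −1.07 to −0.084, limma adjusted p = 0.188, unadjusted p = 0.0254). With the authors' values the difference was −0.45, without SHR 3-3 it was −0.40, and with normexp background correction it was −0.16. Among markers of the tissues richest in Car3, 0 of 13 adipocyte genes and 0 of 15 skeletal muscle genes were called. The largest adipocyte difference was that of Lpl, lipoprotein lipase, at −0.63 on the log2 scale (limma adjusted p = 0.207), or −0.40 without SHR 3-3. Cidea, a lipid droplet protein, had −0.44 (0.152) and passed in the authors' values (−0.52, 0.0449) and without SHR 3-3 (−0.59, 0.0155). Among muscle genes the largest difference was that of Tnnt1, the troponin T of slow muscle, at −0.65 (limma adjusted p = 0.0792). Ckm, muscle creatine kinase, had the next largest, with the opposite sign, at 0.49 (0.143), or 0.33 without SHR 3-3. The mean centred log2 level of the adipocyte list ran from −0.29 to 0.087 in SHR and from −0.081 to 0.30 in WKY. That of the muscle list ran from −0.21 to 0.17 in SHR and from −0.044 to 0.065 in WKY. Their part in the Car3 value was not tested.

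Car8, the calcium channel partner without enzyme activity, differed more between arrays of a strain than between strains. Its log2 signals were 1.35, 1.31, 2.69, −0.039 and 1.91 in SHR, and 1.63, 1.78, 1.54, 2.58 and 1.74 in WKY. SHR held both the highest and the lowest of the 10 values, in SHR 3-1 and SHR 3-3, which shared a slide. On the intensity scale these 2 arrays read 4185 and 324. The mean was 1.44 ± 1.00 in SHR and 1.85 ± 0.42 in WKY (SD, n = 5 each), a log2 difference of −0.41 ± 0.39 SE (95% interval −1.27 to 0.44, limma adjusted p = 0.604). Without SHR 3-3, whose value was 1.85 under the average of the other 4, the difference was −0.042 (adjusted p = 0.954). Without SHR 3-1 it was −0.72 (0.267), and without WKY 4-1 −0.23 (0.818). Of the inositol trisphosphate receptor genes, the channels that Car8 binds, 0 of 3 were called, at an unadjusted p below 0.05 as well. Itpr2 had a log2 difference of −0.53 (limma adjusted p = 0.297), or −0.25 without SHR 3-3, and Itpr1, the receptor through which Car8 was described, one of −0.055 (0.853).

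The genes whose profiles were most like that of Car8 followed it closely from array to array. After each strain's mean was taken away, Mgst2, a microsomal glutathione transferase, had a Pearson r of 0.993 with Car8 over 10 arrays. Akr1c14, an aldo-keto reductase that acts on steroids, had 0.991, and Il6r, the interleukin-6 receptor, 0.982. Without SHR 3-3 these were 0.984, 0.980 and 0.957. They are the 3 highest of 14680 genes, so they describe the profile and carry no test, and all points share the arrays and their scaling. Akr1c14 read −0.63 in SHR 3-1 and −4.37 in SHR 3-3, the highest and lowest of its SHR values, as for Car8. The 13 duct markers tested, none of them a carbonic anhydrase, were low on the same array: their mean centred log2 level was −1.17 in SHR 3-3, 0.030 to 0.42 in the other SHR arrays and −0.010 to 0.18 in WKY, and 0 of 13 were called (2 at an unadjusted p below 0.05). Without SHR 3-3, 2 of them passed, both keratin genes and higher in SHR: Krt19 at 0.62 (limma adjusted p = 0.00436, against 0.35 and 0.431 over all arrays) and Krt7 at 0.64 (0.0164, against 0.20 and 0.812). As with Car8, the highest duct level of each strain was on SHR 3-1 and WKY 4-1. The part of duct cell number or array quality in the Car8 value of SHR 3-3 was not tested.

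**Figure D2:**
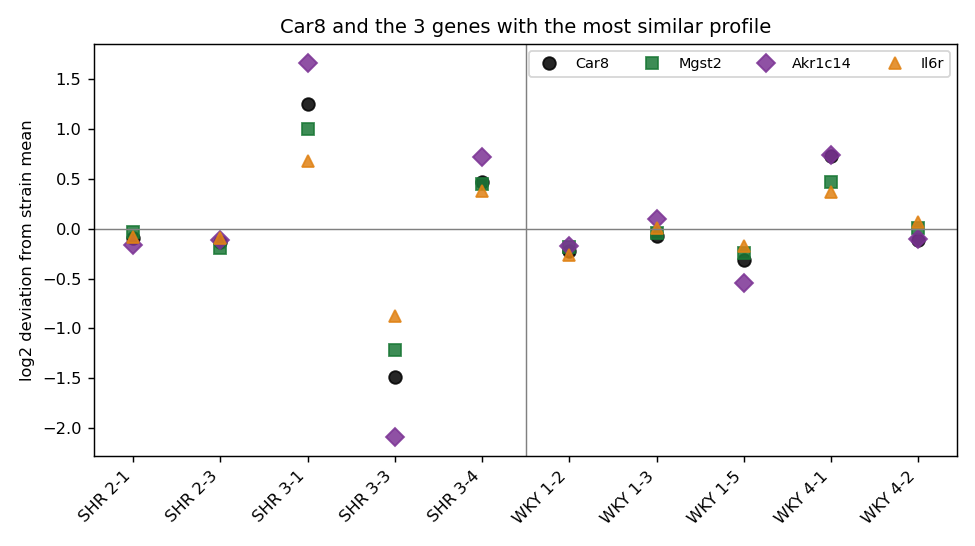
Log2 deviation from the strain mean on each of the 10 arrays for Car8, Mgst2, Akr1c14 and Il6r, with SHR arrays left of the line and WKY arrays right. All 4 genes are highest in SHR 3-1 and lowest in SHR 3-3 among SHR arrays, and highest in WKY 4-1 among WKY arrays.

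Car6, the carbonic anhydrase that serous cells secrete into saliva, read higher in SHR with both of its probes, and neither passed the test. The log2 signals of probe 1 were 8.20, 8.12, 8.06, 8.83 and 8.82 in SHR, and 7.79, 7.77, 8.02, 7.96 and 7.81 in WKY. Every SHR array lay above every WKY array, by a narrow margin between SHR 3-1 and WKY 1-5. The mean was 8.41 ± 0.39 in SHR and 7.87 ± 0.12 in WKY (SD, n = 5 each), 1.45-fold higher in SHR, a log2 difference of 0.54 ± 0.16 SE (95% interval 0.19 to 0.88, limma adjusted p = 0.0859, unadjusted p = 0.00536). The log2 signals of probe 2 were 7.42, 6.92, 7.12, 7.81 and 7.28 in SHR, and 6.98, 7.10, 7.06, 7.09 and 6.89 in WKY. Here the strains overlapped, and SHR 2-3 lay below 4 of the WKY arrays. The mean was 7.31 ± 0.33 in SHR and 7.02 ± 0.09 in WKY (SD, n = 5 each), a log2 difference of 0.29 ± 0.14 SE (95% interval −0.020 to 0.60, limma adjusted p = 0.292). SHR 3-3 exceeded the average of the other 4 by 0.53 in probe 1 and by 0.62 in probe 2. Without that array the differences were 0.43 (adjusted p = 0.122) and 0.16 (0.430).

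The Car6 difference moved with the way arrays were scaled. Car6 probe 1 ranked 1 to 5 in signal among the 30367 probes on SHR arrays and 3 to 7 on WKY arrays, and probe 2 ranked 29 to 48 on SHR arrays and 31 to 47 on WKY arrays. These ranks describe the scanner signal and not an order of mRNA levels. In the authors' deposited values, whose columns all have the same distribution, the log2 difference was 0.085 (adjusted p = 0.563) for probe 1 and 0.0025 (0.991) for probe 2, and with quantile normalisation of the processed signal it was 0.085 and 0.0025. With normexp correction and quantile normalisation it was 0.0038 and 0.017. Before any scaling between arrays it was 0.41 and 0.16. The brightest probes moved the same way as a class: the 50 with the highest mean signal, chosen after the data were seen, had a median log2 difference of 0.36 with 75th percentile scaling, 45 of 50 above 0 and 3 of 50 called higher, and of −0.0012 in the authors' values. Columns of the same distribution give the brightest ranks nearly the same values on every array. A near-0 median of that class was thus set by the scaling and is no test of the strains. Car6 probe 1, among these ranks, ran only from 16.97 to 17.38 in the authors' values. For Car6 the authors' values and quantile normalisation nearly coincide and count as 1 comparison. The intensity of probe 1 was 141275, 178184, 173300, 151636 and 199380 in SHR, and 110911, 93932, 156955, 144471 and 132704 in WKY, so that on the unscaled scale the strains overlapped. Whether the scaling or the mRNA sets the difference was not tested.

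**Figure D3:**
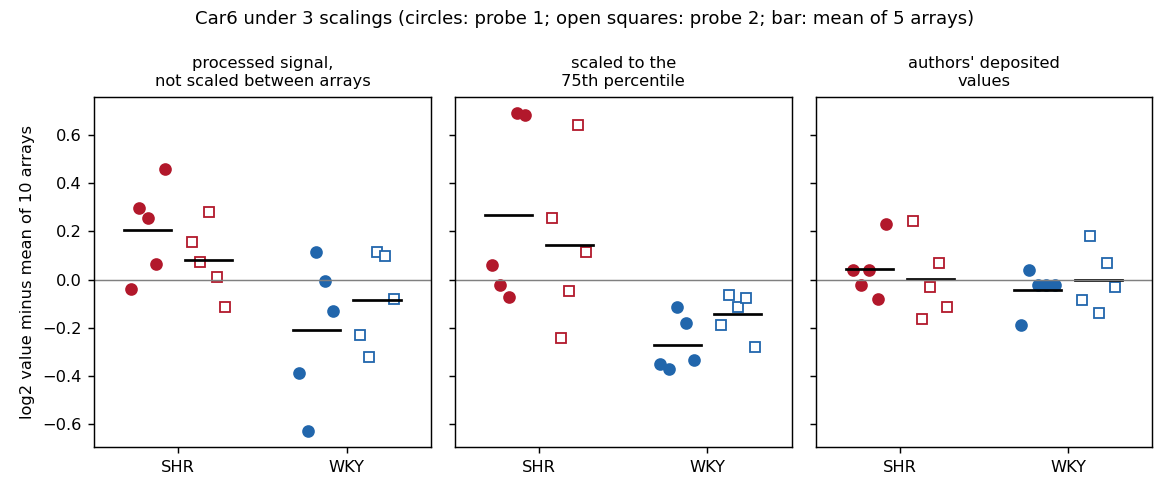
Each Car6 value minus the mean of the 10 arrays on the log2 scale, for the unscaled processed signal, for 75th percentile scaling and for the authors' deposited values; circles are probe 1, open squares probe 2 and bars the mean of 5 arrays. The strain means lie apart in the first 2 panels and nearly coincide in the authors' values.

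Other products of serous and acinar cells did not move as 1 group beside Car6. Of 9 acinar markers tested, 0 were called higher and 3 lower, with the mean centred log2 level of the list at −0.59 to −0.22 in SHR and 0.20 to 0.57 in WKY. The 3 were Smgc (−4.10 on the log2 scale), Cyss (−4.06) and Prpmp5 (−1.73), which encode secreted proteins. The median difference of the list was 0.23, opposite in sign to its mean level. The 6 acinar markers not called were all above 0, as Car6 was, from 0.20 for Kcnn4 to 0.63 for Pip (limma adjusted p = 0.0758). In the authors' values Pip was 0.16. Of the 9 acinar markers, 6 had an unadjusted p below 0.05, the 3 called ones among them, against 19.2% of all probes. With the slide as a block Smgc (−4.38, adjusted p = 0.00685) and Cyss (−3.58, 0.0373) passed, and Prpmp5 (−1.66, 0.0516) did not. Of 7 markers of parotid serous cells, 1 was called higher (Oprpn, 0.61 on the log2 scale, limma adjusted p = 0.0445) and 1 lower (Prb3, −0.64, 0.0128), with the list at −0.11 to 0.0997 in SHR and −0.14 to 0.19 in WKY. In the authors' values Oprpn was 0.16 and not called (0.192). With the slide as a block neither was called, Oprpn at 0.46 and Prb3 at −0.75. Prh1, from the same list, was 0.46 higher in SHR (limma adjusted p = 0.172), and 0.00081 in the authors' values. Of the rest, Amy1a was lowest at −0.42 and Prp15 highest at 0.079. Over both lists the strains did not overlap for Smgc, Cyss, Prpmp5 and Prb3, lower in SHR, and for Pip and Prh1, higher in SHR. Over all probes 6.72% did not overlap. The part of the cells of either list in the Car6 value was not tested.

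Car4, the lipid-anchored isoform found on capillary endothelium and on some epithelia, was slightly higher on average in SHR, within the spread between arrays. Its log2 signals were −2.49, −2.57, −3.11, −3.12 and −2.91 in SHR, and −3.18, −3.59, −2.94, −2.92 and −3.002 in WKY. SHR 2-1 and 2-3 were the 2 highest arrays, WKY 1-3 was the lowest, and the rest were mixed. The mean was −2.84 ± 0.30 in SHR and −3.13 ± 0.28 in WKY (SD, n = 5 each), a log2 difference of 0.28 ± 0.16 SE (95% interval −0.067 to 0.63, limma adjusted p = 0.361). It was 0.17 without WKY 1-3 and 0.14 with normexp correction. Of 9 endothelial markers tested, 1 was called higher (Plvap, a protein of endothelial fenestrae, 0.60 on the log2 scale, limma adjusted p = 0.0455), and its difference was as large without SHR 3-3 (0.61, adjusted p = 0.0566) and with the slide as a block (0.79, 0.665), past the threshold in neither. The mean centred log2 level of the list ran from −0.16 to 0.27 in SHR and from −0.16 to 0.048 in WKY, and its part in the Car4 value was not tested.

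Car9, the transmembrane isoform best known as a target of the hypoxia-inducible factors, showed the smallest difference of the 9 probes. Its log2 signals were −1.69, −1.61, −1.70, −1.63 and −1.71 in SHR, and −1.47, −1.73, −1.79, −1.61 and −1.73 in WKY. All 5 SHR arrays fell inside the WKY range. The mean was −1.67 ± 0.05 in SHR and −1.67 ± 0.13 in WKY (SD, n = 5 each), a log2 difference of −0.0037 ± 0.084 SE (95% interval −0.19 to 0.18, limma adjusted p = 0.987).

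Car12, a transmembrane isoform of duct and other secretory epithelia, was somewhat higher in SHR without passing the test. The Car12 probe had log2 signals of −0.83, −0.88, −0.74, −0.86 and −0.56 in SHR, and −1.21, −0.98, −1.08, −1.03 and −0.88 in WKY. The strains met at a single point, where WKY 4-2 lay about level with SHR 2-3. The mean was −0.77 ± 0.13 in SHR and −1.03 ± 0.12 in WKY (SD, n = 5 each), 1.20-fold higher in SHR, a log2 difference of 0.26 ± 0.09 SE (95% interval 0.059 to 0.46, limma adjusted p = 0.147, unadjusted p = 0.0154). It was 0.29 with the authors' values (adjusted p = 0.1004) and 0.28 without SHR 3-3.

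Car14, the remaining transmembrane isoform, was slightly lower on average in SHR. On the log2 scale the Car14 signals were −1.84, −1.75, −1.90, −1.68 and −2.04 in SHR, and −1.33, −1.63, −1.77, −1.73 and −1.77 in WKY. The 2 highest arrays were WKY 1-2 and 1-3, and SHR 3-3 came next. The mean was −1.84 ± 0.14 in SHR and −1.64 ± 0.19 in WKY (SD, n = 5 each), a log2 difference of −0.20 ± 0.11 SE (95% interval −0.43 to 0.036, limma adjusted p = 0.338). Without WKY 1-2 it was −0.12, as with normexp correction. The membrane isoforms did not share 1 profile across arrays. WKY 1-2 gave the highest Car9 and Car14 values and the lowest Car12 value of the 10 arrays, and SHR 3-4 gave the highest Car12 value and the lowest Car14 value.

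The start regions of Car9 and Car12 are shown because both genes are known hypoxia targets in other cells and their probes gave the smallest difference and the narrowest overlap of the membrane isoforms. RefSeq promoter windows of assembly GRCr8, from 250 bases before to 50 after the gene's start, were found for 4 of the 8 genes (Car4, Car9, Car12 and Car14). They were searched on both strands for ACGTG and GCGTG, the core letters to which hypoxia-inducible factors bind. Capitals mark the matches. The Car9 window is chr5:62558774-62559073 and the Car12 window chr8:76169565-76169864, both on the plus strand.
Car9: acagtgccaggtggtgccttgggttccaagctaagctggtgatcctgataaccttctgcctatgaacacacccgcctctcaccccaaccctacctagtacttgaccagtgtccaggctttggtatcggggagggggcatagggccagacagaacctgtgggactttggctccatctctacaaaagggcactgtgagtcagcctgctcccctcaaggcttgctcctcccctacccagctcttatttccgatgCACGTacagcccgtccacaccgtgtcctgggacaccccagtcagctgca
Car12: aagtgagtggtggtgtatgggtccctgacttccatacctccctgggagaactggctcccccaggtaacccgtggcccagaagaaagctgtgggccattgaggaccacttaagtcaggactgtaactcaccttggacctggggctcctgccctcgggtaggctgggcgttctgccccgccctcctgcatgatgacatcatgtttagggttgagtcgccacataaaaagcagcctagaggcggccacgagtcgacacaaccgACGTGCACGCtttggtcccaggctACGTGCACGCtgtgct
Car9 held 1 match, Car12 held 4, Car14 held 1 and Car4 held 2. At least 1 match stood in 41.6% of all 33469 windows of this length, and at least 4 in 3.46%. These shares were not matched for base content. G and C made up 57.7% of the Car9 window and 59.0% of the Car12 window, beside a median of 51.7%. In Car12 the 4 matches form 2 copies of the same 10 letters, each an ACGTG followed without overlap by a GCGTG on the opposite strand. All 4 lie after the gene's start, at positions 10 to 39 from it. A match of 5 letters describes the sequence and does not show that a factor binds there.

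**Figure D4:**
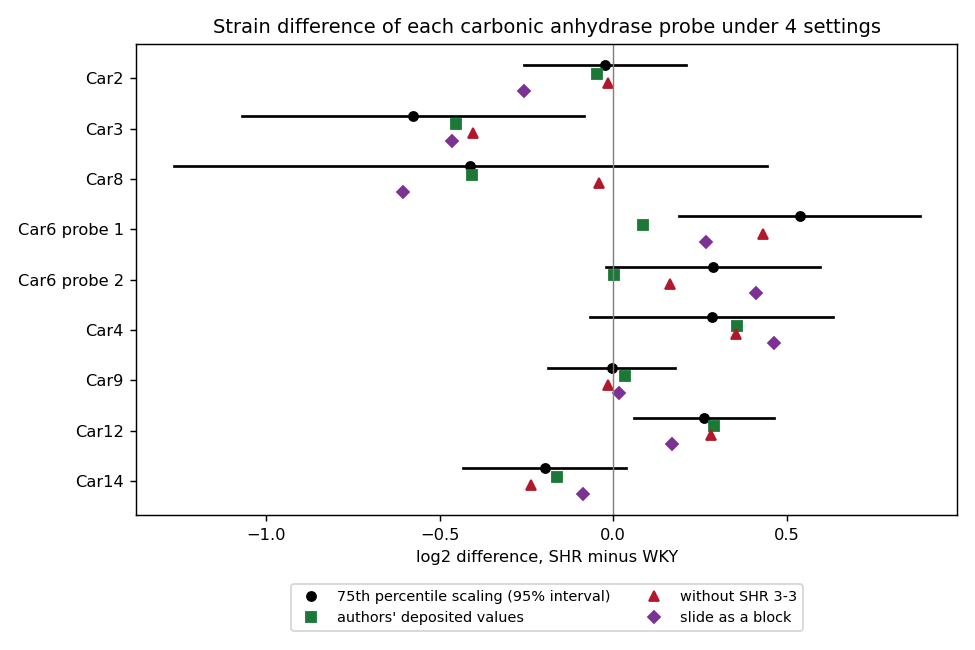
Log2 difference, SHR minus WKY, of each probe with its 95% interval under 75th percentile scaling, and the value in the authors' deposited values, without SHR 3-3 and with the slide as a block. Car6 moves toward 0 in the authors' values, Car8 moves toward 0 without SHR 3-3, and Car12 and Car4 stay above 0 in all 4.

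Genes that work with carbonic anhydrases were counted from lists, with the brightest probe standing for each gene. Over all probes tested, 3.84% were called and 19.2% had an unadjusted p below 0.05, and the list counts are to be read beside these shares. Of 7 other family members tested, 0 were called and 3 had an unadjusted p below 0.05, with a median log2 difference of −0.098. Car13, a cytosolic isoform, had the largest difference, −0.97 ± 0.34 SE (limma adjusted p = 0.140), with signal above background on 7 of 10 arrays. Without SHR 3-3 it was −0.60 (0.0753). Car11, a relative without enzyme activity, followed with 0.37 ± 0.15 (0.207), or 0.24 (0.287) without SHR 3-3. In GRCr8, Car2, Car3, Car1 and Car13 stand next to each other in this order on chromosome 2. Their log2 differences were −0.023, −0.58, −0.098 and −0.97, none of them past the threshold.

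Among genes of bicarbonate and proton exchange, 1 of 19 tested fell, 0 rose and 18 did not pass, with a median log2 difference of −0.15. The member that fell was Slc4a4, the sodium bicarbonate cotransporter that loads bicarbonate into duct and acinar cells, with a log2 signal of 2.63 ± 0.09 in SHR and 3.10 ± 0.17 in WKY (SD, n = 5 each), a difference of −0.47 ± 0.10 SE (limma adjusted p = 0.0194). The strains did not overlap for it. With the slide as a block the difference was −0.34 and was no longer called. In the authors' values 2 more members passed, Slc4a10, a sodium-driven bicarbonate transporter, at −0.63 (adjusted p = 0.0394) and Slc4a3, an anion exchanger, at 0.35 (0.0230).

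Of 19 genes of the vacuolar proton pump, which acidifies compartments and the luminal side of some duct cells, 0 were called and 4 had an unadjusted p below 0.05 (median −0.092). Atp6ap2, an accessory subunit also known as the prorenin receptor, had a log2 difference of −0.50 (limma adjusted p = 0.312), or −0.24 without SHR 3-3, and Atp6v1b1, the subunit of acid-secreting epithelial cells, one of 0.45 (0.101). Without SHR 3-3, on which the list's mean centred log2 level was −0.45, Atp6v1b1 was 0.55 higher and passed (adjusted p = 0.0327). Of 23 genes of the hypoxia pathway, which acts on Car9, 1 rose and 22 did not pass (median 0.015). Beside hypoxia-induced genes this list holds Hif1a, Epas1, Arnt and Vhl, which encode parts of the pathway itself. The member that rose was the glycolytic enzyme gene Eno1, at 0.68 ± 0.16 SE (limma adjusted p = 0.0327), and in GRCr8 it is the gene next to Car6. With the slide as a block its difference was 0.52 and was no longer called. The largest difference of the list ran the other way without passing: Pfkfb3 at −0.84 (limma adjusted p = 0.0640). It was −0.78 without SHR 3-3 and 0.28 with the slide as a block. On the other side of Car6 the nearest gene tested was Slc2a5, at −0.79 (limma adjusted p = 0.318). Of 11 genes of zinc supply, which the enzymes need as cofactor, 0 were called and 3 had an unadjusted p below 0.05 (median 0.15). Slc30a4, a zinc exporter, had a log2 difference of 0.43 (limma adjusted p = 0.130) and Slc39a8, a zinc importer, one of 0.28 (0.240).

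**Figure D5:**
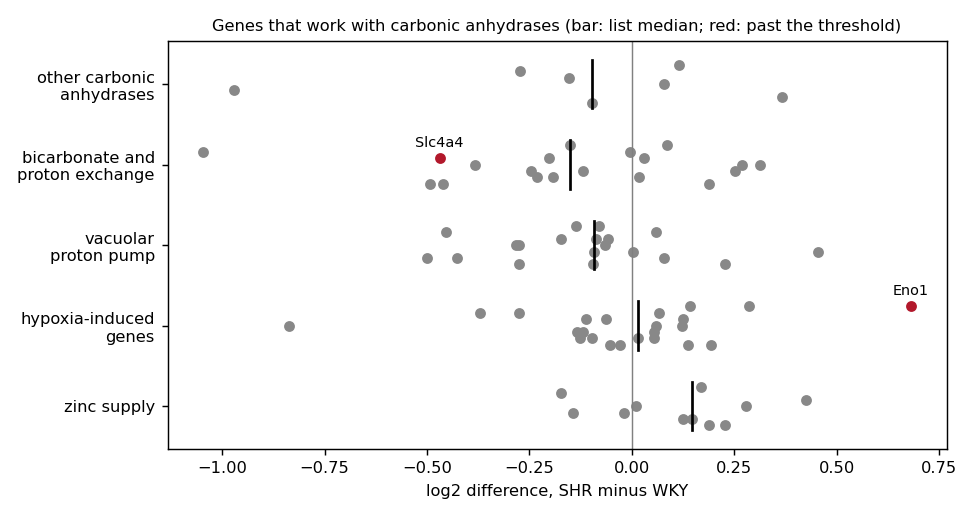
Log2 difference, SHR minus WKY, of each tested gene in 5 lists, with a bar at each list's median and genes past the limma threshold in red. Only Slc4a4 (lower in SHR) and Eno1 (higher in SHR) are red, and every list median lies between −0.15 and 0.15.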

How the data were processed

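Messenger RNA was measured on 10 arrays of submandibular gland, 5 SHR and 5 WKY. Agilent Feature Extraction 11.0.1.1 read the authors' arrays, per the file headers, and its processed signal is a background-subtracted intensity without scaling between arrays. A value table deposited by the authors gives log2 values for 30423 probes, each column with a median of 7.19; the sources used here do not state its making.

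The log2 processed signal was set relative to the array's 75th percentile, outlier spots were dropped and spots of a probe averaged. A probe was kept if 5 or more of 10 arrays were well above background (29266). Symbols came from RefSeq accessions (GRCr8), which named 18005 probes. The strains were compared over all kept probes in limma (lmFit, eBayes, no covariates, two-sided). Groups came from the strain label.

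For gene lists, counts and medians are given, with no set test. Named are all member probes, up to 4 called genes of a pathway list (otherwise the 2 largest differences) and the 3 genes most like each member, of which 1 is not reported here. A list level is the mean over genes of the log2 value minus the gene's mean over arrays. The members and lists were chosen with earlier results of these data known. Alternatives covered scaling, background, filters, probes per gene, variance models, slide, title number and each array left out. The plan assumed a mean signal for normexp (offset 50); the files hold a median signal, which was used. Simulated data with known changes were used to test the fit. Versions were R 4.3.3, limma 3.58.1, Python 3.11.15, pandas 2.3.3 and matplotlib 3.10.9.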

Additional observations from a re-analysis of the deposited data

Results flagged for a closer look

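Of 18 groups of 5 arrays (9 probes in each strain), 1 held an array far from the others. In WKY 4-1 the Car8 signal was 2.58 on the log2 scale relative to the array's 75th percentile, 0.91 above the mean of the other WKY arrays. The gap to the nearest array was 0.774 of the strain's whole range, above the critical share of 0.71. Chance puts about 1 group in 20 past this limit. Without WKY 4-1 the Car8 difference, SHR minus WKY, was −0.23.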

How the results depend on the processing

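No member was called with quantile, median or normexp scaling, deposited values, no filter, the stricter filter, outlier spots kept, 1 probe or the mean of probes per gene, array weights, trended variances, a 1.5-fold minimum, the slide as a fixed block, slide 2 alone, or any array left out. The exceptions were the random blocks. With the slide as a random block 2 members were called higher (Car6 probe 1, 0.58, adjusted p = 0.00617; Car12, 0.27, 0.0199) and 1 lower (Car3, −0.66, 0.0219), and with the first title number 2 were higher (Car6 probe 1, 0.56, 0.0235; Car12, 0.27, 0.0459). The estimated block correlations were −0.183 and −0.157, and with them 2202 and 1129 of all probes were called higher and 3550 and 1922 lower.

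Of all probes, 376 were higher and 747 lower. The higher count was 620 with quantile normalisation, 707 in the authors' values, 568 with array weights and 222 or 218 with the brightest probe or the mean per gene (419 or 432 lower). It was 26 with a 1.5-fold minimum (97 lower), 23 with the slide as a fixed block (73 lower) and 30 on slide 2 alone (79 lower). Without 1 array it ran from 210 to 431 and the lower count from 402 to 917. A count fell short of that over all arrays by more than 1.5 times without SHR 3-4 (240 higher), WKY 1-2 (223 higher, 433 lower), WKY 1-3 (210, 402) and WKY 4-1 (243, 496).

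Car9 turned from −0.0037 to 0.025 with quantile normalisation, 0.028 with median scaling, 0.016 with normexp, 0.033 in the authors' values, 0.017 with a fixed slide block or slide 2 alone and 0.0086 with the random slide block; without 1 array it ran from −0.035 to 0.046. Car2 turned from −0.023 to 0.0093 with median scaling and 0.028 with the random slide block; without 1 array it ran from −0.080 to 0.042. The other 7 probes kept their direction in all settings run. The cause was not tested. Above background on all arrays, Car3 was not tested. No paired analysis was possible because the titles' first numbers differ between the strains and the labels pair no arrays. Dim signal limits Car3, which 2 SHR arrays did not measure above background.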

Other observations

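The remaining members also had genes with similar profiles across arrays. They were ranked by Pearson r over 10 arrays after each strain's mean was taken away, as the highest of 14680 genes, and are given as a description with no test. For Car3 the nearest genes were RT1-T18, a class I histocompatibility gene (0.956), Ppt1, a lysosomal thioesterase (0.956), and Cd48, a surface protein of leukocytes (0.956). Without SHR 3-3 these were 0.929, 0.956 and 0.928. For Car6 they were Rpl36a, a ribosomal protein gene (0.966), Map3k3, a kinase (0.963), and Marf1 (0.958). Without SHR 3-3 they were 0.980, 0.943 and 0.940. For Car2 they were Mettl3, the catalytic subunit of the RNA methylation complex (0.952), Cask (0.941) and Zg16b (0.903). Without SHR 3-3 they were 0.953, 0.955 and 0.907. For Car12 they were Ube2v2 (0.938), Cebpd (0.923) and Cox6c-ps1 (0.873), or 0.939, 0.918 and 0.876 without SHR 3-3.

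Car4, Car9 and Car14 were followed by genes with no shared name or family. For Car4 these were Rabac1 (0.916), Rabepk (0.897) and Serpinh1 (0.882), or 0.904, 0.973 and 0.860 without SHR 3-3. For Car9 they were Vom1r100 (0.929), Aadacl4fm2 (0.925) and Xiap (0.907), or 0.944, 0.929 and 0.919 without SHR 3-3. For Car14 they included Or14a260 (0.978) and Qrfprl (0.937), or 0.974 and 0.933 without SHR 3-3. None of the genes so named for the 8 members differed between strains at a limma adjusted p below 0.05. Myoepithelial markers, which complete the cell types looked at, gave 0 of 8 calls and 2 at an unadjusted p below 0.05.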
